A study of Danio rerio with 21 samples.

Results

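The 41 genes described here form the machinery of chemical synapses in the zebrafish. They were taken by NCBI Gene number from a table of 26225 genes, and all 41 were found, 39 of them under the current RefSeq symbol. The symbol vamp1 was matched to the gene now named vamp1a, and cplx2 to cplx2b. They fall into 7 role groups, namely the SNARE proteins and their partners, the calcium sensors and complexins, the vesicle membrane and vesicle pool proteins, the active zone, scaffold and adhesion proteins, the transmitter receptors, the enzymes and transporters of transmitters, and the neuronal RNA-binding proteins. RNA came from wild-type AB strain zebrafish (the genotype label reads Wide type), labelled as whole fish, in 7 groups of 3 biological replicates, which gave 21 libraries. Control fish were kept at 28 °C and sampled at the age of 25, 35, 45 or 60 dpf (days post fertilization), as groups C25D, C35D, C45D and C60D. Thermally treated fish spent the days from 25 to 35 dpf at 35 °C and were sampled at the end of the exposure (T35D) or, after their return to 28 °C, at 45 dpf (T45D) and 60 dpf (T60D). All fish came from a mating within 1 family, from 5 to 15 fish were collected at a time point, and about 60 mg of tissue was ground for an extraction. The RNA is described as extracted from the whole body. How many fish a library holds, and how the ground tissue was taken from larger fish, is not given in the sources used here. The replicates are named as biological replicates of a group, and the p-values measure the spread between them.

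At a chemical synapse, an action potential opens calcium channels in the presynaptic terminal. Calcium binds synaptotagmin on a docked vesicle, and SNARE proteins of the vesicle (synaptobrevin, or VAMP) and of the terminal membrane (SNAP-25 and syntaxin) zip together and fuse the membranes. The released transmitter, mostly glutamate for excitation and GABA or glycine for inhibition in the brain, opens receptors on the next cell and is taken up again by transporters. These genes are active in neurons of the brain, the retina, the spinal cord and the peripheral ganglia, and some also act in endocrine cells that release hormone granules. The head of a juvenile fish holds the brain and both eyes, so in whole-body RNA their level can move with the amount of head tissue in the sample as well as with their activity. In such bulk RNA, fewer neurons and less RNA per neuron cannot be told apart.

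The rounded expected counts (reads assigned to a gene by RSEM, not normalized) gave library totals of 11875436 to 16471158 (median 13616124). Levels are given as CPM, the count of a gene relative to the library total, scaled by edgeR's TMM factors over all 21 libraries, and 3 counts, the limit used here for a gene not detected, corresponded to between 0.182 and 0.253 CPM before that scaling. The libraries differed in their head tissue markers. The rod opsin gene rho was at 477 to 1157 CPM in C45D and 868 to 1273 CPM in C25D, but at 0 to 0.386 CPM in the 3 C60D libraries, 0.298 in C35D-1, 0.126 in T60D-2, 1.22 in T45D-3 and 15.3 in T45D-1. The lens crystallin gene cryaa was at 80.5 to 122 CPM in C45D and at or under 0.193 CPM in the same 7 libraries. Liver markers were low in 5 of the 7, since the liver gene fabp10a was at 0.316 to 1.46 CPM in C60D, 1.08 in T45D-3 and 2.14 in T60D-2, against 317 CPM or more in the other 16 libraries. These 7 libraries are labelled as whole fish, yet cryaa was at or near 0 in all of them and rho in all but T45D-1, where rho was far below its C45D levels.

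The synapse genes separated the same libraries. The mean of log2 CPM over all 41 genes was 4.53 ± 0.17 (SD, n = 3) in C25D, 2.32 ± 1.89 in C35D, 4.00 ± 0.26 in C45D and 0.03 ± 0.41 in C60D. In the heat-treated groups it was 3.18 ± 1.63 in T35D, 0.95 ± 1.55 in T45D and 1.84 ± 2.4 in T60D. C25D, C45D and C60D were tight, whereas C35D and the 3 heat-treated groups each mixed libraries with high and low values. Library by library, the mean was 0.19, 3.79 and 2.98 in C35D and 4.51, 3.68 and 1.36 in T35D. At 45 dpf it was 4.25, 3.74 and 4.01 in C45D against 0.28, 2.73 and -0.15 in T45D. At 60 dpf it was -0.35, 0.47 and -0.04 in C60D against 4.21, -0.58 and 1.90 in T60D. The 7 lowest libraries were thus all of C60D, T45D-1, T45D-3, C35D-1 and T60D-2.

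**Figure D1:**
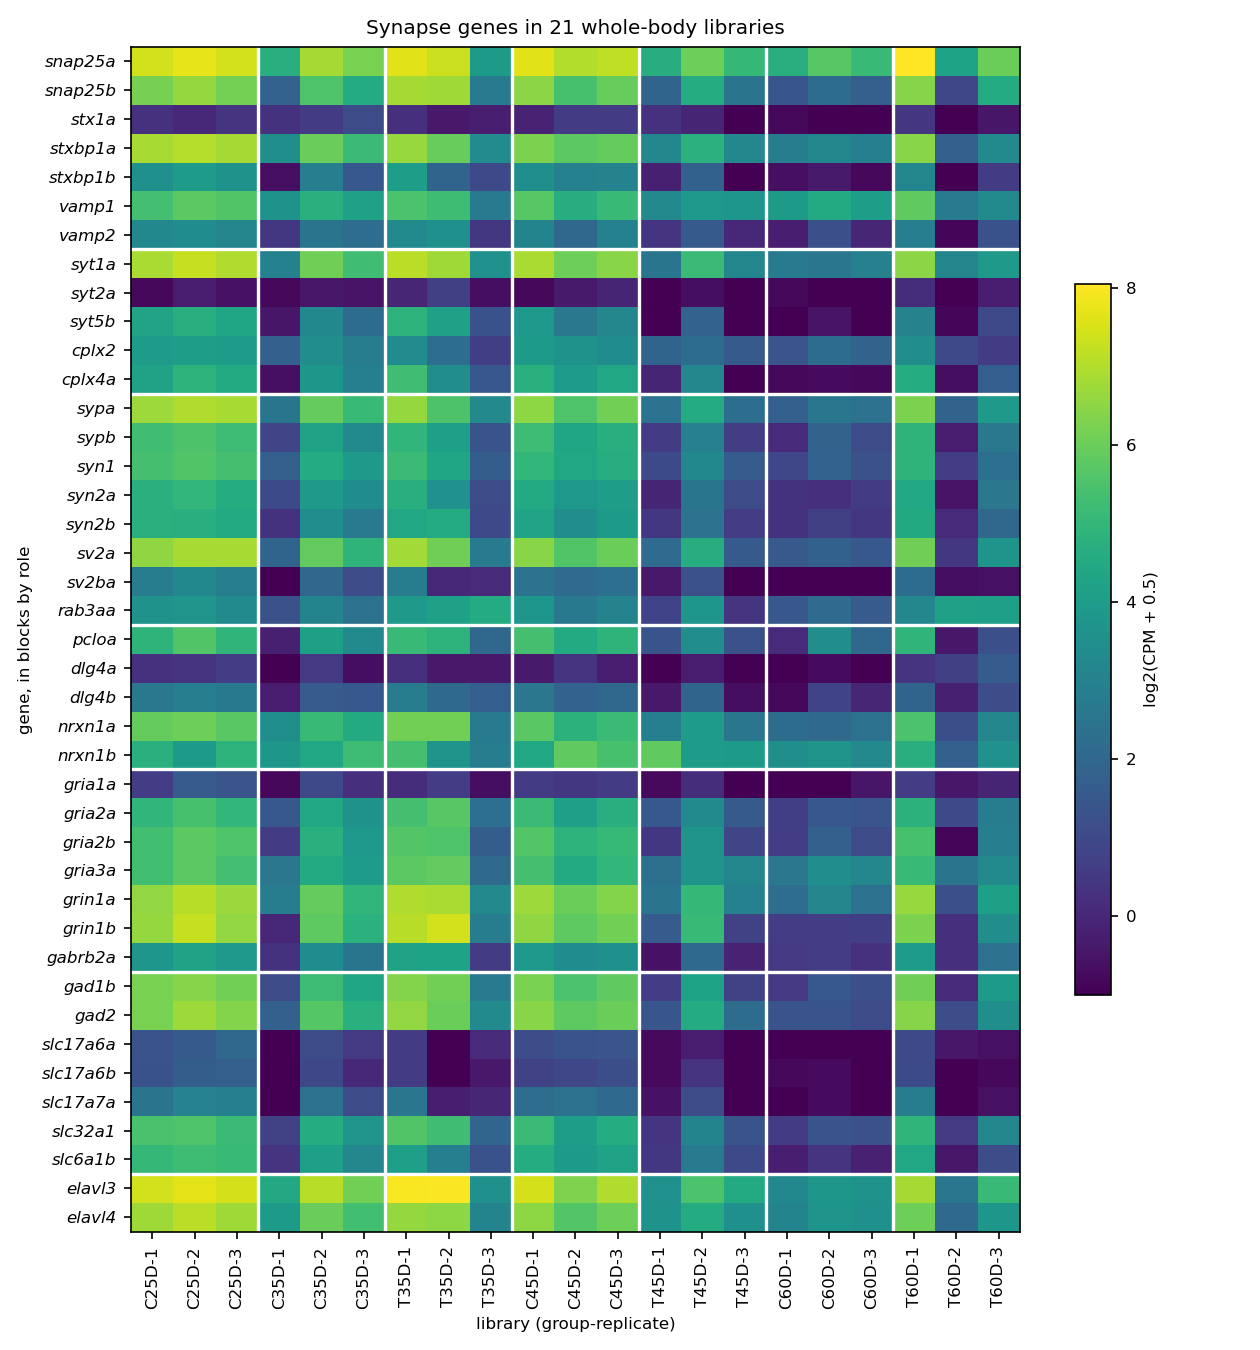
Level of each of the 41 synapse genes (rows, in blocks by role) in each of the 21 libraries (columns, by group), as log2(CPM + 0.5) on the colour scale. All 3 C60D libraries, T45D-1, T45D-3, C35D-1 and T60D-2 are dark over most rows, and the C25D and C45D libraries are light.

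On the authors' FPKM, which is scaled by gene length and so allows genes to be set against each other, the genes spanned a wide range. Averaged over the 21 libraries, snap25a stood at 53.7 FPKM and snap25b, its paralog, at 35.1. They were followed by stxbp1a at 17.7, elavl3 at 17.5, sypa at 16.5, vamp1 at 14.3 and gad1b at 13.1 FPKM. At the low end, syt2a (0.14 FPKM), dlg4a (0.154), gria1a (0.283), slc17a6a (0.46), slc17a6b (0.573) and stx1a (0.575) were near the detection limit in many libraries. For the neuronal glutamate transporters slc17a6a and slc17a6b, for example, the highest level in any library was 3.53 and 2.86 CPM.

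The first comparison is of heat-treated fish and controls 10 days after the heat ended. The 41 genes were chosen with earlier results of these data known, so the counts below describe them and are no independent test. At 45 dpf, 38 of the 41 genes had enough counts to be tested, and stx1a, syt2a and dlg4a did not. All 38 had a log2 fold change below 0, with a median of -2.49 against 0.12 over all 20125 genes tested. Some of these, such as slc17a6a and gria1a, passed the count filter only through C45D, so their direction was fixed in advance. With at least 10 counts required in each library, 20 genes were tested and all 20 were below 0. For 35 of the 38, the 3 T45D libraries lay below the 3 C45D libraries without overlap, as did 19.3% of all genes, and the exceptions were dlg4b, rab3aa and nrxn1b. At an unadjusted edgeR p of 0.05 or less, 30 of the 38 were lower, against 10.5% of all genes, and 0 were higher. After adjustment over all genes, edgeR called 0 of the 38 and 0% of all genes, and the smallest adjusted p among the synapse genes was 0.213. DESeq2 called 14 of the 38 lower at an adjusted p of 0.05 or less, against 2.46% of all genes.

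The T45D libraries differed widely among themselves. T45D-2 was at 2.73 and the other T45D libraries at 0.28 and -0.15 in mean log2 CPM of the 41 genes. Without T45D-2, edgeR called 36 of 39 tested synapse genes and 7.98% of all genes, and the median of the synapse genes was -3.87. With T45D-2 as the only heat-treated library, 39 of 40 tested genes were below 0 and the median was -1.29. In that fit the spread is taken from C45D alone and T45D-2 is assumed to vary like a control library, so no p-values are given for it. Without C45D-1, 18 of 39 were lower at an unadjusted p of 0.05 or less, against 6.23% of all genes.

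The SNARE genes had a median of -2.11 in their log2 fold changes at 45 dpf, over the 6 that were tested. For snap25a, the SNARE protein of the terminal membrane, the level was 199, 127 and 146 CPM in C45D and 24.6, 66.6 and 32.1 CPM in T45D. Its log2 fold change was -1.88 (SE 0.47), with an edgeR adjusted p of 0.215. The paralog snap25b was at 88, 41.9 and 61 CPM in C45D and 3.32, 23.8 and 5.13 CPM in T45D, and its log2 fold change of -2.50 (SE 0.79) was further below 0. In both genes T45D-2 lay nearest to the controls and the groups did not overlap. The syntaxin-binding genes stxbp1a and stxbp1b, which encode Munc18 chaperones of syntaxin, had log2 fold changes of -2.03 and -2.80. The vesicle SNARE vamp1 was among the genes with the smallest difference, at 51.5, 24.2 and 34.6 CPM in C45D and 9.06, 13.6 and 12.8 CPM in T45D (log2 fold change -1.57, SE 0.38), and vamp2 was at -2.19.

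Among the calcium sensors, syt1a, the synaptotagmin of fast transmitter release, was at 118, 65.9 and 86.2 CPM in C45D and 5.29, 35.5 and 8.37 CPM in T45D. Its log2 fold change was -2.40 (SE 0.75). The groups did not overlap, and T45D-2 was again the highest of the heat-treated libraries. The complexin gene cplx4a, whose mouse counterpart acts at the ribbon synapses of the retina, was at 26.2, 15.5 and 20.7 CPM in C45D and 0.448, 8.61 and 0 CPM in T45D. It was thus undetected in T45D-3 and near the limit in T45D-1, and its log2 fold change of -2.69 (SE 1.37) had a wide error. The synaptotagmin gene syt5b behaved alike, with 13.7, 5.73 and 8.54 CPM in C45D and 0, 3.13 and 0 CPM in T45D (log2 fold change -3.00, SE 1.43), which put it among the 3 lowest. By contrast, cplx2 kept 3.32, 4.15 and 2.43 CPM in T45D against 14.7, 12 and 10.0 in C45D (log2 fold change -1.82, SE 0.37).

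The 8 vesicle genes had a median of -2.59. Synaptophysins are abundant proteins of the vesicle membrane, and sypa was at 90.8, 46.2 and 69.4 CPM in C45D against 4.93, 23.3 and 4.32 CPM in T45D (log2 fold change -2.60, SE 0.73). For sypb the values were 36.2, 19.4 and 25 CPM in C45D and 0.986, 7.21 and 1.08 CPM in T45D, and its log2 fold change of -3.03 (SE 0.84) was the second lowest of the 38. The synapsins, which hold vesicles in the reserve pool, lay close together at -2.50 (syn1), -2.76 (syn2a) and -2.59 (syn2b). The vesicle glycoprotein genes sv2a and sv2ba were at -2.64 and -2.48. Only rab3aa of this group overlapped between the groups. This gene encodes a small GTPase of secretory vesicles, and its level was 12.8, 5.84 and 7.7 CPM in C45D and 1.25, 13 and 0.81 CPM in T45D (log2 fold change -0.73, SE 1.01), so that T45D-2 exceeded every control library of its age.

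In the active zone and adhesion group, neurexins are presynaptic adhesion proteins that bind partners across the cleft. For nrxn1a the values were 52.7, 28 and 35.7 CPM in C45D and 6.99, 15.7 and 5.4 CPM in T45D, with a log2 fold change of -1.99 (SE 0.50). Its paralog nrxn1b departed from the rest, with 21, 57.1 and 42.6 CPM in C45D and 56.3, 15.1 and 14.9 CPM in T45D (log2 fold change -0.42, SE 0.66, edgeR adjusted p = 0.749). Its highest T45D library was T45D-1, 1 of the 7 libraries with the lowest mean. Piccolo (pcloa), a scaffold of the active zone, was at -2.63, and dlg4b, which encodes the postsynaptic scaffold PSD-95, was at -1.60 with overlapping groups.

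All 7 receptor genes were lower without overlap, with a median of -2.45. Every NMDA receptor contains the subunit type that grin1a and its paralog grin1b encode. The level of grin1a was 105, 64.9 and 82 CPM in C45D and 5.11, 31.9 and 7.29 CPM in T45D (log2 fold change -2.45, SE 0.73). In its paralog grin1b the levels were 93.2, 55.8 and 69.1 CPM in C45D and 2.6, 33.8 and 1.22 CPM in T45D (log2 fold change -2.48, SE 1.16). The distance between T45D-2 and the other heat-treated libraries was larger for grin1b, at 33.8 against 2.60 and 1.22 CPM. The AMPA receptor genes, which carry most fast excitation, had log2 fold changes of -1.68 (gria1a), -2.34 (gria2a), -2.84 (gria2b) and -1.83 (gria3a). The GABA-A receptor subunit gene gabrb2a was at -2.84.

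Genes of GABA and of glutamate neurons had log2 fold changes of like size. The glutamate decarboxylase gene gad1b, which makes GABA, was at 74.6, 44 and 57 CPM in C45D and 1.08, 18.7 and 1.22 CPM in T45D (log2 fold change -3.00, SE 1.12). The second such gene, gad2, was at 87.4, 55.2 and 64.2 CPM in C45D and 2.15, 23 and 4.05 CPM in T45D (log2 fold change -2.76, SE 0.88). The vesicular transporter of GABA and glycine, slc32a1, and the GABA uptake transporter slc6a1b were at -2.71 and -2.64. On the glutamate side, the vesicular transporter gene slc17a6a had the lowest log2 fold change of all 38, -3.47 (SE 0.74), but at levels of 1.68, 2.07 and 2.09 CPM in C45D and 0.0897, 0.319 and 0 CPM in T45D. Its relatives slc17a6b and slc17a7a were at -1.96 and -2.59. Among the neuronal RNA-binding genes, which mark postmitotic neurons, elavl3 was at 177, 77.3 and 124 CPM in C45D and 11.4, 44.5 and 22.6 CPM in T45D (log2 fold change -2.21, SE 0.59), and elavl4 at 90.2, 48.8 and 65.5 and 12.2, 23.1 and 11.2 CPM (log2 fold change -2.07, SE 0.42, edgeR adjusted p = 0.213). DESeq2's 14 calls were snap25a, stxbp1a, cplx2, sypa, sypb, syn1, syn2a, syn2b, pcloa, nrxn1a, slc17a6a, slc6a1b, elavl3 and elavl4, so that genes of 6 of the 7 roles were among them and no receptor gene was.

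**Figure D2:**
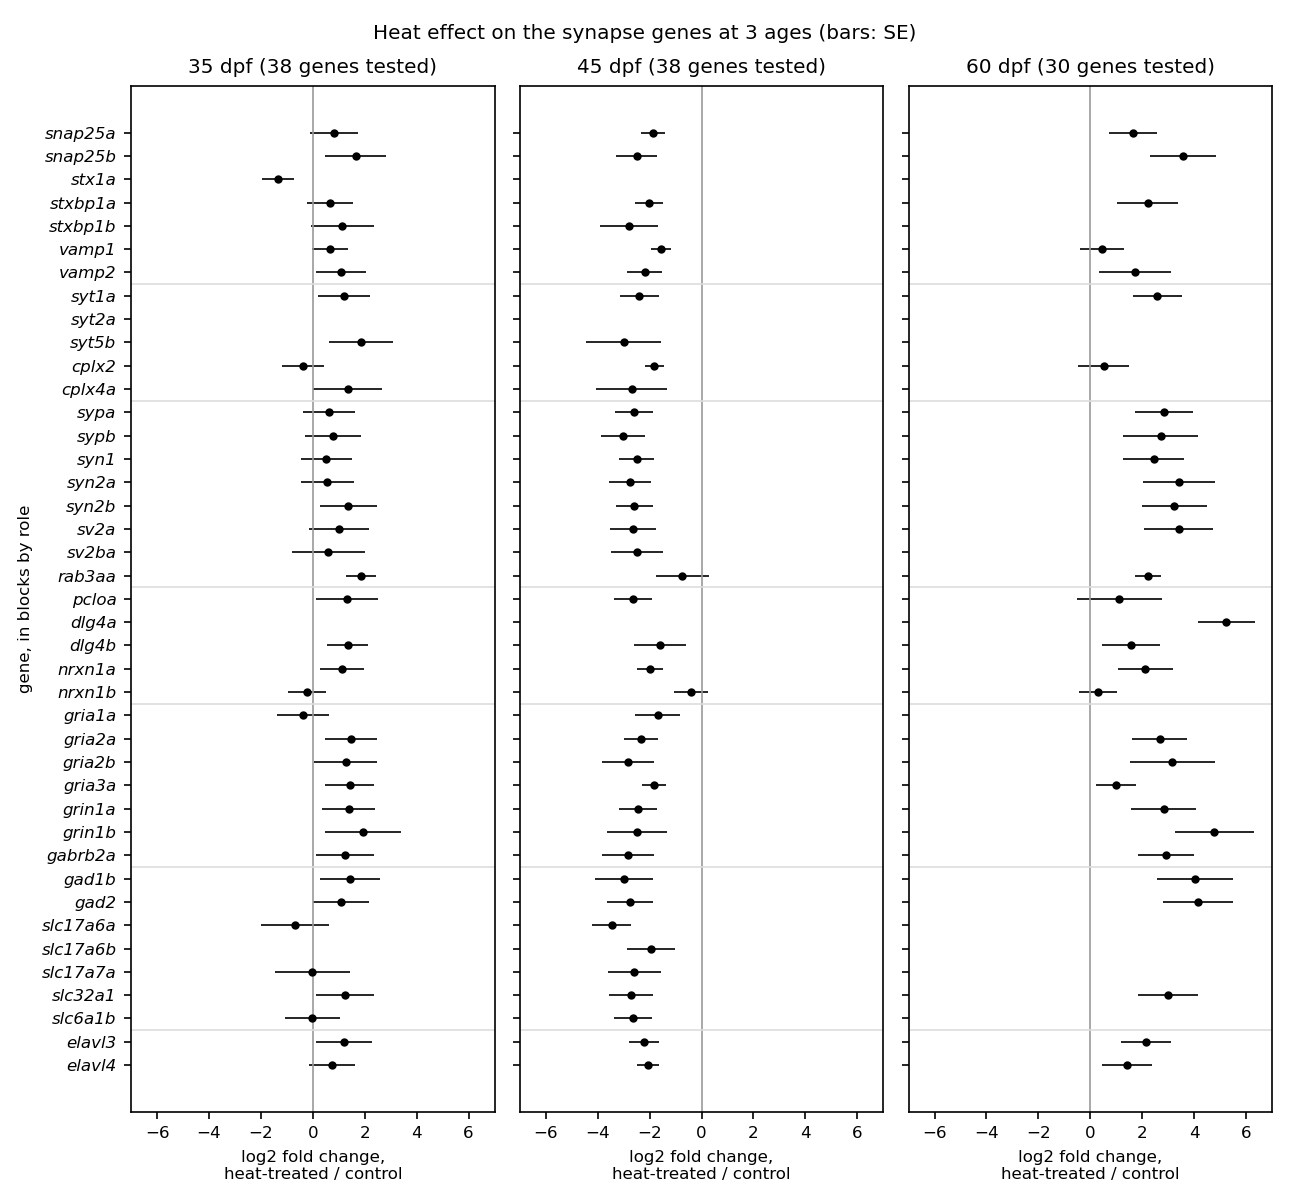
Log2 fold change of heat-treated against control fish for each synapse gene at 35, 45 and 60 dpf, from edgeR fits of 6 libraries each, with bars for 1 SE and gaps for genes not tested. All points lie left of 0 at 45 dpf and right of 0 at 60 dpf, and the 60 dpf point of dlg4a depends on the prior count because its C60D libraries were all at 3 counts or fewer.

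Head tissue content was then set beside the synapse genes. The photoreceptor list held 53 genes of the retina, and its mean log2 CPM at 45 dpf was 5.23, 4.33 and 4.78 in C45D and -0.41, 3.52 and -2.78 in T45D. Its 51 tested genes all had a log2 fold change below 0, with a median of -2.72 against -2.49 for the synapse genes. The summed level of the list ran from 2338 to 4605 CPM in C45D and from 133.7 to 1366 CPM in T45D. In T45D, up to 22 of the 53 genes were at a count of 0 in a library, against 0 of 53 in every C45D library. In the lens list of 49 genes, all 48 tested were below 0, with a median of -2.75, and the summed level was 3794 to 6427 CPM in C45D against 12.3 to 2260 CPM in T45D. In T45D-1 and T45D-3, 37 and 43 of the 49 lens genes were at or under 3 counts. So were 14 and 43 of the 53 photoreceptor genes. Such eye genes passed the count filter mainly through C45D, so their direction was largely fixed in advance and their fold changes rest on low counts. The forebrain and midbrain transcription factors had a median of -1.68 over 27 tested, and the neuroendocrine granule genes of -1.84 over 14. The list of hindbrain, spinal cord and peripheral neurons had a median of -0.51 over 21 genes, and the glia and myelin list of -0.52 over 19. Fast muscle was at 1.17 over 27, exocrine pancreas at 1.00 over 15 and oocyte markers at 1.54 over 7, whereas liver was at -0.23 over 19. These lists differed between the T45D libraries. In mean log2 CPM the oocyte list was at -1.93, 8.18 and -0.83 and the liver list at 9.21, 7.81 and -1.04. Exocrine pancreas was at 8.87, 7.55 and 0.22, and fast muscle at 11.04, 9.69 and 12.1. The part of head tissue content in the lower synapse genes was not tested.

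Over all 21 libraries, the 7 lowest for the synapse genes were also the 7 lowest for the photoreceptors, the lens, the forebrain and midbrain factors and the neuroendocrine granule genes. They shared 5 of 7 with the lowest libraries for glia and myelin, and as many for liver, for exocrine pancreas and for pituitary hormones. The pituitary list of 11 genes was near the detection limit in every library, at 0.419 to 2.96 CPM in sum. At 45 dpf 0 of its genes had enough counts to be tested. The shared number was 4 of 7 for hindbrain, spinal cord and peripheral neurons, and 3 of 7 for fast muscle and for oocytes. The eye lists spanned more than the synapse genes, since the photoreceptor list ran from -3.34 in C60D-1 to 5.40 in T35D-1 while the synapse genes ran from -0.58 in T60D-2 to 4.71 in C25D-2. The libraries lowest in eye markers therefore kept some synapse RNA. In C60D-1, with rho at 0.209 CPM, snap25a was still at 25.8 CPM and vamp1 at 14.9 CPM.

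**Figure D3:**
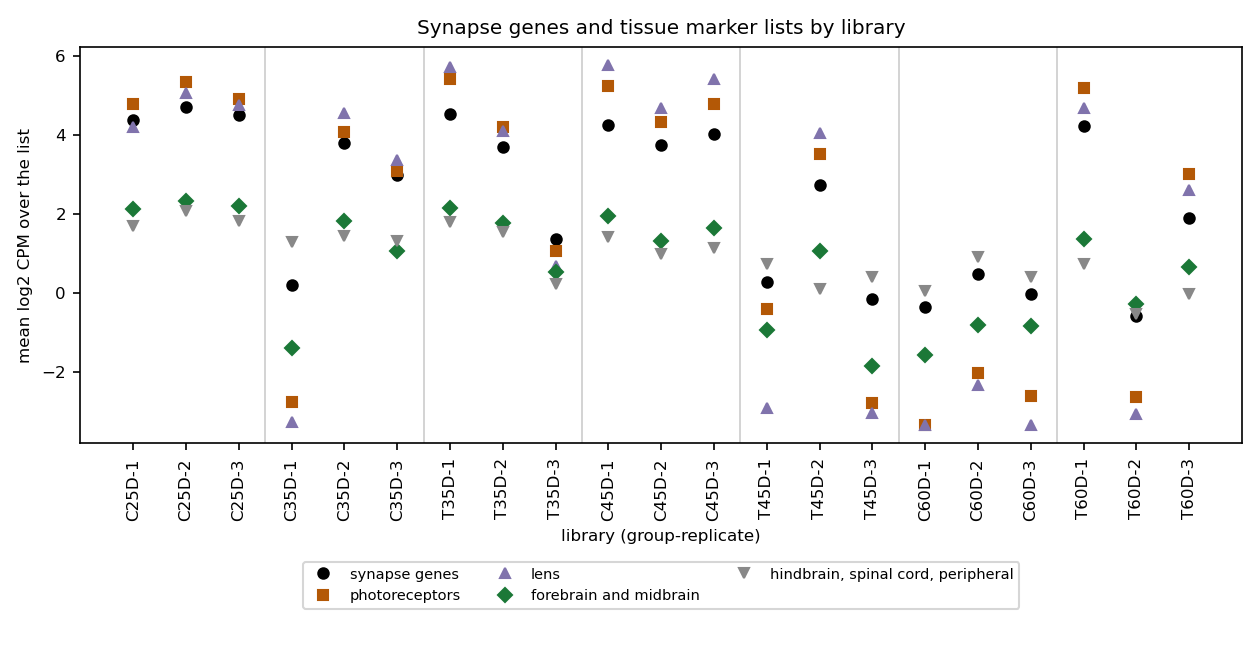
Mean log2 CPM of the 41 synapse genes and of 4 marker lists (retina, lens, forebrain and midbrain, and hindbrain, spinal cord and peripheral neurons) in each library. In C60D, T45D-1, T45D-3, C35D-1 and T60D-2 the synapse, eye and forebrain points drop together, and the hindbrain, spinal cord and peripheral points lie between -0.54 and 2.08 in all 21 libraries.

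At the end of the heat exposure, 38 synapse genes were tested, and dlg4a, syt2a and slc17a6b were not. The median log2 fold change was 1.11, against 0.27 over all genes, and 31 of the 38 were above 0. The edgeR test called 0 of them and 0% of all genes, with 1 higher at an unadjusted p of 0.05 or less (15.8% of all genes were) and 0 lower, and DESeq2 also called 0. The exception was rab3aa, at 1.86, 8.05 and 4.88 CPM in C35D and 14.2, 17.6 and 23.2 CPM in T35D (log2 fold change 1.87, SE 0.58, edgeR adjusted p = 0.192). The groups did not overlap for rab3aa and dlg4b (higher) and for stx1a (lower, log2 fold change -1.34, SE 0.62), which encodes the syntaxin of the terminal. Over all genes tested, 10% did not overlap and were higher and 14.2% did not overlap and were lower, so these counts are below the background. In the other 35 genes the groups overlapped. C35D-1 was low among the controls and T35D-3 low among the heat-treated libraries. The photoreceptor list followed, at -2.76, 4.07 and 3.08 in C35D and 5.40, 4.19 and 1.06 in T35D. With C35D-1 and T35D-3 left out, 9 of 40 genes were higher at an unadjusted p of 0.05 or less against 3.42% of all genes, 0 were called, and the median was 1.07. Both libraries were chosen after the data were seen, and both were low in these same genes. Leaving them out takes spread from the values tested, so this count is no support for a difference. Without T35D-3 alone 4 of 40 genes were higher at that p, against 8.18% of all genes, and without C35D-3 rab3aa was not. The direction was less even without T35D-1, when 16 of 38 genes were below 0, and without C35D-1, when 12 of 40 were. With all libraries it was 7 of 38.

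By gene at 35 dpf, snap25a was at 24.7, 114 and 73.7 CPM in C35D and 199, 159.5 and 14.8 CPM in T35D, and snap25b at 3.05, 46.6 and 22.9 and 113, 107 and 6.13 CPM. For the calcium sensor syt1a the values were 7.37, 67.4 and 37.8 and 137, 108 and 11.5 CPM, and for cplx4a 0.149, 13.2 and 6.97 and 38.5, 10.6 and 2.25 CPM. In each of these genes T35D-1 was above every C35D library, and T35D-3 was below C35D-2 and C35D-3. The vesicle gene sypa was at 5.28, 58.9 and 34.4 CPM in C35D and 97.2, 44.9 and 9.06 CPM in T35D, and sypb at 1.34, 18.1 and 9.38 and 30.7, 16.8 and 2.04 CPM. Neurexin nrxn1a was at 10.9, 33.5 and 22.6 and 69.8, 69.8 and 5.92 CPM, and nrxn1b, the other neurexin, at 13.2, 21.2 and 36.1 and 41.6, 12.5 and 6.61 CPM. C35D-1, far below its group in sypa, was less so in nrxn1b. Values for the NMDA receptor gene grin1a were 6.7, 59 and 30.9 and 124, 118 and 9.06 CPM. In grin1b they were 0.521, 55.1 and 26.9 and 136, 172 and 6.61 CPM, and the log2 fold change of 1.93 (SE 1.46) was the highest of the 38. Next came rab3aa and syt5b (log2 fold change 1.85, SE 1.22), while slc17a6a (log2 fold change -0.69, SE 1.31) and gria1a (log2 fold change -0.38, SE 1.01) followed stx1a at the low end. The GABA synthesis gene gad1b was at 1.64, 36.5 and 19.4 CPM in C35D and 81.9, 68.7 and 5.92 CPM in T35D, and gad2 at 2.9, 50.7 and 26.4 and 96.1, 64.4 and 9.26 CPM. For elavl3 the levels were 21.4, 134 and 69.6 and 250.3, 255 and 11.1 CPM, and for elavl4 14.9, 62.2 and 39.3 and 96.7, 89.7 and 7.97 CPM. T35D-1 and T35D-2 had more elavl3 RNA than any other library of the series.

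At 60 dpf the order was the opposite of that at 45 dpf, since here the control libraries were low. Only 30 genes were tested, and 11 were too low in most of the 6 libraries (stx1a, stxbp1b, syt2a, syt5b, cplx4a, sv2ba, gria1a, slc17a6a, slc17a6b, slc17a7a and slc6a1b). The tested genes were all above 0, with a median of 2.63 against -0.02 over all genes. With the 1 tested gene whose C60D libraries were all at or under 3 counts set at its bound, the median was 2.59. Of the 30, 14 were higher at an unadjusted edgeR p of 0.05 or less, against 16.1% of all genes, and 0 were lower. After adjustment edgeR called 0 and 0% of all genes, with a smallest adjusted p of 0.145, while DESeq2 called 13 of the 30 higher, against 9.37% of all genes. The groups did not overlap for 3 of the 30 (syt1a, rab3aa and dlg4a), against 11.8% of all genes. Of these, dlg4a was at 3 counts or fewer in every C60D library and passed the count filter only through T60D. Its direction and lack of overlap were thus fixed in advance.

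T60D held the library T60D-1, with a mean log2 CPM of 4.21, T60D-3 at 1.90 and T60D-2 at -0.58, which was below all of C60D. Without T60D-1, 9 of the 30 genes were below 0, the median was 0.63, and edgeR called 3 of them against 32.1% of all genes. In that fit 2 were higher at an unadjusted p of 0.05 or less and 1 was lower, against 25.3% and 22.5% of all genes. Without T60D-2, 28 of 34 were higher at that p against 16.9% of all genes, and 4 were called against 2.13%. Leaving out C60D-1, C60D-2 or C60D-3 brought the number higher at that p to 5, 4 and 3 of 34, against 11.8%, 11.9% and 8.12% of all genes. The photoreceptor list was at -3.34, -2.02 and -2.61 in C60D and at 5.19, -2.64 and 3.00 in T60D, and the lens list summed to 15.7 to 26.9 CPM in C60D and 12.2 to 4714 CPM in T60D. Eye markers were thus near 0 in every C60D library and in T60D-2. The liver list also differed, at 9.80 to 38.0 CPM in sum in C60D against 22.2 to 42890.0 CPM in T60D.

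The SNARE gene snap25a was at 25.8, 51 and 33.7 CPM in C60D and 264, 18.4 and 64.4 CPM in T60D (log2 fold change 1.65, SE 0.92). Its paralog snap25b was at 2.16, 4.05 and 2.85 CPM in C60D and 84.8, 1.39 and 22.9 CPM in T60D (log2 fold change 3.58, SE 1.27), so T60D-2 was below every control in both. Calcium sensor syt1a, with 6.28, 5.4 and 7.11 CPM in C60D and 88.5, 8.14 and 13.9 CPM in T60D (log2 fold change 2.57, SE 0.94, edgeR adjusted p = 0.167), was an exception. For cplx4a the values were 0.0698, 0.0965 and 0.079 and 23.5, 0.126 and 2.73 CPM, and the mean of T60D was at least 35.8-fold higher than the limit of 3 counts per library in C60D. On the vesicle, sypa was at 2.93, 5.4 and 4.74 CPM in C60D and 76, 3.22 and 13.9 CPM in T60D, and sypb at 0.558, 3.19 and 1.66 and 29.4, 0.315 and 5.61 CPM. The neurexin gene nrxn1a was at 4.05, 3.86 and 4.66 and 44.3, 1.77 and 8.5 CPM. With 10.8, 12.3 and 9.09 CPM in C60D and 25.6, 2.9 and 11.5 CPM in T60D, nrxn1b had the smallest difference (log2 fold change 0.29, SE 0.74), followed by vamp1 (log2 fold change 0.45, SE 0.86) and cplx2 (log2 fold change 0.51, SE 0.98). At the other end stood the receptor gene grin1b, at 1.05, 1.06 and 1.11 CPM in C60D and 76.4, 0.694 and 10.5 CPM in T60D (log2 fold change 4.78, SE 1.52). In grin1a the values were 4.19, 8.11 and 4.66 and 100.5, 1.83 and 17.1 CPM. GABA synthesis genes were also near the top, gad2 at 2.02, 2.03 and 1.58 and 84.8, 1.7 and 11 CPM (log2 fold change 4.13, SE 1.34) and gad1b at 0.907, 2.32 and 1.82 and 68, 0.568 and 14.6 CPM (log2 fold change 4.04, SE 1.47). The neuronal genes elavl3 and elavl4 differed less, elavl3 at 8.79, 13.2 and 12 and 112, 5.42 and 34.3 CPM and elavl4 at 7.96, 12.3 and 11.1 and 66.7, 3.78 and 13.2 CPM. In most of these genes the range of T60D enclosed that of C60D.

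The postsynaptic scaffold gene dlg4a took a course of its own. It was at 0, 0.0965 and 0 CPM in C60D and 0.775, 1.14 and 2.57 CPM in T60D, at least 6.09-fold higher in T60D than the limit of 3 counts per library. Its highest library of all 21 was T60D-3 and the second was T60D-2, where most other synapse genes were low, though rab3aa was at 17.7 CPM. In C45D it was at 0.292, 0.827 and 0.326 CPM.

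The difference between the heat effects at separate ages was tested in a joint edgeR fit of the 18 libraries from 35 to 60 dpf, in which 40 genes were tested. The heat effect was higher at 60 than at 45 dpf in all 40, by a median of 5.52 log2 units against 0.05 over all genes. Among the 40 are genes such as cplx4a, syt5b, stxbp1b, sv2ba and slc17a7a, which were at 3 counts or fewer in every C60D library. Their effect at 60 dpf could hardly be below 0, and its size depends on the prior count. The median and the counts below include them. At an unadjusted p of 0.05 or less, 36 of 40 were higher against 11.6% of all genes, edgeR called 0 after adjustment (smallest adjusted p 0.117), and DESeq2 called 27 of the 40 against 5.84% of all genes. Without T45D-2 edgeR called 8 of 40 against 3.48% of all genes, and without T60D-2 it called 15 against 3.11%. From 35 to 45 dpf the median difference was -3.30, with 17 of 40 lower at an unadjusted p of 0.05 or less against 4.4% of all genes and 0 called by edgeR or DESeq2. Between these ages, the mean log2 CPM of the synapse genes dropped by 3.97 from C45D to C60D and was 0.89 higher in T60D than in T45D. Without T60D-1 the mean of T60D was 0.66, below the 0.95 of T45D, and the median difference between the heat effects at 60 and 45 dpf was 3.57.

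Between the control groups at 45 and 60 dpf the synapse genes fell. Of 38 tested, 36 were called lower by edgeR at an adjusted p of 0.05 or less, against 18.2% of all genes, and in all 38 the groups did not overlap, as was the case with C60D lower for 27.1% of all genes. The median log2 fold change was -3.90, or -3.83 with the 8 genes whose C60D libraries were all at 3 counts or fewer set at their bound. The genes not called were vamp1 (log2 fold change -1.02, SE 0.32, edgeR adjusted p = 0.0551) and pcloa (log2 fold change -2.63, SE 0.88, edgeR adjusted p = 0.0698). In 8 genes every C60D library was at or under 3 counts, so that only a bound of the fall can be given. These genes passed the count filter through C45D and could only be lower. Among these, cplx4a was at least 84.7-fold lower, syt5b at least 38-fold, stxbp1b at least 35.2-fold, sv2ba at least 18.2-fold and slc17a7a at least 17.2-fold, relative to 3 counts per library. Also at that limit, slc17a6a was at least 7.92-fold, slc17a6b at least 5.9-fold and gria1a at least 3.92-fold lower. Of the genes still detected, grin1b fell by 6.07 on the log2 scale (SE 0.26), slc6a1b by 5.22, gad2 by 5.19, gad1b by 5.13 and sv2a by 4.70.

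A smaller fall was seen in genes of several roles. Among them, snap25a fell by 2.08 on the log2 scale (SE 0.32), cplx2 by 1.98, gria3a by 1.95, nrxn1b by 1.90 and rab3aa by 1.59. The neuronal RNA-binding gene elavl4 fell by 2.70 and elavl3 by 3.47, and the scaffold and SNARE genes dlg4b and vamp2 by 2.79 and 2.85. In between, log2 fold changes were -3.12 for stxbp1a, -3.21 for nrxn1a, -3.59 for syn1, -3.68 for gabrb2a, -3.81 for gria2a and -3.84 for syt1a. They were -3.89 for grin1a, -3.91 for sypb, -3.94 for slc32a1, -3.97 for syn2b, -3.98 for sypa, -4.31 for gria2b, -4.38 for syn2a and -4.40 for snap25b. By role, with such genes at their bound, the median was -4.54 over the 4 calcium sensors and complexins, -4.10 over the 7 genes of transmitter synthesis and transport and -2.71 over the 4 of the active zone group. The markers of other tissues moved in the same comparison. Called lower were 49 of 51 photoreceptor genes, 46 of 48 lens genes and all 19 liver genes, against 18.2% of all genes. In C60D, 34 to 45 of the 53 photoreceptor genes and 35 to 41 of the 49 lens genes were at or under 3 counts, so no median is given for them. Many of these eye genes passed the count filter only through C45D and could only be lower. The liver list summed to 9.80 to 38.0 CPM against 14730 to 24160 CPM in C45D. The hindbrain, spinal cord and peripheral list had a median of -0.61, with 5 of 20 called lower against 18.2% of all genes. The part of eye, brain and liver content in the fall of the synapse genes was not tested.

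The earlier steps of the controls were smaller. From 25 to 35 dpf, 38 of 40 tested synapse genes were below 0, with a median of -1.69, and 36 did not overlap between the groups, against 20.8% of all genes. At an unadjusted edgeR p of 0.05 or less, 20 were lower against 12.7% of all genes, and edgeR called 0 lower after adjustment against 0.0538% of all genes, with a smallest adjusted p of 0.0795. DESeq2 called 16 lower against 6.92% of all genes. With the replicate number as a block, since same-numbered libraries of these groups deviated together, edgeR called 1, against 1.34% of all genes. Without C35D-1 it called 16 against 5.36% of all genes, and without C35D-2, the library nearest to C25D, 15 against 15.6%. C25D had the highest mean of the 7 groups, with 172, 211 and 172 CPM for snap25a and 72.5, 96.8 and 70.2 CPM for snap25b. Its levels were 119.8, 152 and 126 CPM for syt1a, 18.1, 28.4 and 22.4 CPM for cplx4a, 105, 124 and 116 CPM for sypa and 38, 44.9 and 36.5 CPM for sypb. The 3 C25D libraries stayed within a narrow range in each of these genes. For the adhesion and receptor genes they were at 59.3, 65.3 and 52.3 CPM (nrxn1a), 26.6, 14.9 and 28.1 CPM (nrxn1b), 95.5, 135 and 103 CPM (grin1a) and 98.6, 152 and 95.5 CPM (grin1b). For transmitter synthesis and neuronal RNA binding they were at 73.8, 84.6 and 69.7 CPM (gad1b), 75.1, 106 and 81.4 CPM (gad2), 170.5, 204 and 175 CPM (elavl3) and 108, 137 and 107 CPM (elavl4). The widest relative range among them was that of nrxn1b.

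From 35 to 45 dpf in the controls, 38 of 39 genes were above 0, with a median of 1.04. Of them 1, vamp1, was higher at an unadjusted edgeR p of 0.05 or less, against 9.69% of all genes, and neither edgeR nor DESeq2 called any after adjustment, while edgeR called 5.05% of all genes. In the heat-treated fish from 35 to 45 dpf, 32 of 33 genes were below 0, with a median of -2.43. The edgeR test called 0 of them (0% of all genes) and DESeq2 0, and 7 were lower at an unadjusted p of 0.05 or less (snap25b, vamp2, syn2b, nrxn1a, gria2a, slc32a1 and elavl3), against 1.91% of all genes. From 45 to 60 dpf in the heat-treated fish the median was 1.43 over 34 genes, with 33 above 0. This direction rested on T60D-1, since without it 27 of 34 genes were below 0 and the median was -0.48. Here edgeR called 0 (0% of all genes) and DESeq2 0, and dlg4a was the 1 gene higher at an unadjusted p of 0.05 or less, against 0.318% of all genes. With 0, 0.319 and 0 CPM in T45D, dlg4a passed the count filter only through T60D, so its direction was fixed in advance. These comparisons share libraries with those given above and are not independent of them.

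Paralog pairs give a measure within 1 library that no scaling touches, the log2 ratio of their counts. The 3 pairs shown were chosen after their values were seen, and the ratios are given without a test. Reads of near-identical paralogs can be split in different ways by the counting, so the absolute ratio is uncertain. The ratio of snap25a to snap25b was 1.25, 1.12 and 1.3 in C25D and 1.18, 1.6 and 1.26 in C45D, but 3.55, 3.64 and 3.55 in C60D. In T45D it was 2.87, 1.48 and 2.63, and in T60D 1.64, 3.7 and 1.49, so that T45D-2, T60D-1 and T60D-3 resembled the younger controls. C35D-1 was at 3.00 against 1.3 and 1.68 in the rest of its group. In the libraries with the fewest eye transcripts, snap25a was thus a larger part of the pair. For grin1a and grin1b the ratio was 0.17, 0.22 and 0.25 in C45D and 1.96, 2.88 and 2.04 in C60D. It was 0.96, -0.08 and 2.52 in T45D and 3.59, 0.10 and 0.20 in C35D. T60D-2, which had the lowest mean of all synapse genes, was at 1.36. For nrxn1a and nrxn1b it went the other way, at 1.33, -1.03 and -0.26 in C45D, -3.00, 0.06 and -1.45 in T45D and -1.41, -1.67 and -0.96 in C60D. Pairs not shown differed in this. The mean ratio of vamp1 to vamp2 was 2.55 in C45D and 4.62 in C60D. That of sypa to sypb was 1.35 and 1.52, and that of gad2 to gad1b 0.24 and 0.25.

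**Figure D4:**
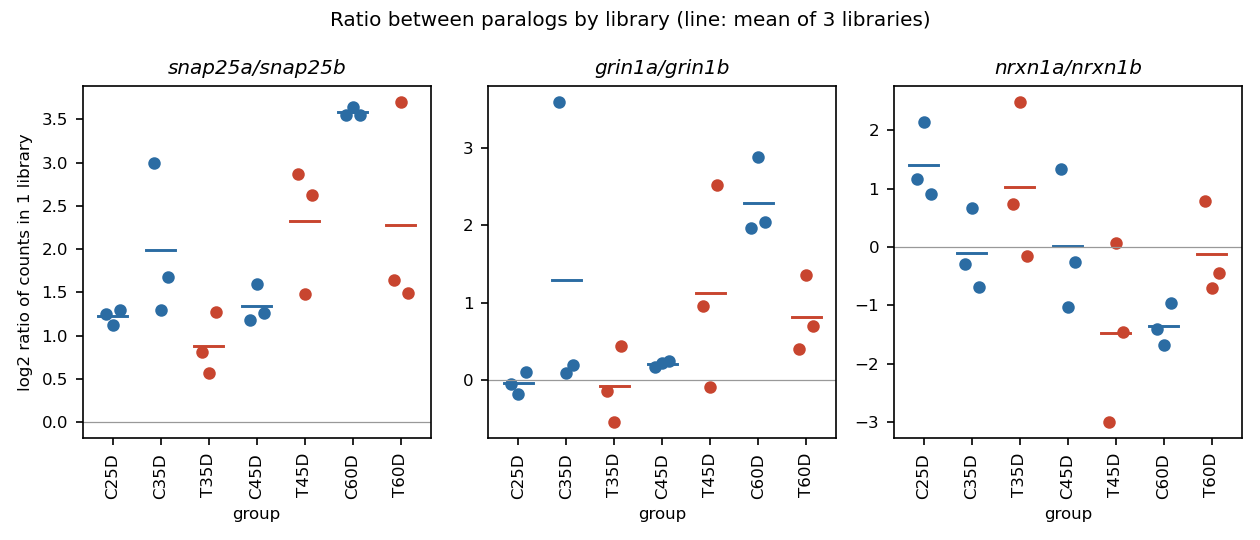
Log2 ratio of the counts of 2 paralogs within each library, for 3 pairs and 7 groups, with controls in blue, heat-treated fish in red and a line at the mean of 3 libraries. The snap25a to snap25b ratio lies between 3.55 and 3.64 in C60D and between 1.12 and 1.3 in C25D.

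How closely each gene followed the others was described by the correlation, over the 21 libraries, of its log2 CPM with the mean of the other 40 genes. The libraries share tissue content, so the values describe them only. The Pearson coefficient was 0.90 or more in 31 genes, the highest being 1.00 for sypa. It was lowest for nrxn1b (0.55), rab3aa (0.57), dlg4a (0.65), stx1a (0.71) and syt2a (0.75), of which stx1a, dlg4a and syt2a were near the detection limit. Spearman's coefficient of sypa was 0.96 with the photoreceptor list, 0.96 with the forebrain and midbrain list, 0.80 with the hindbrain, spinal cord and peripheral list and -0.15 with the oocyte list. For nrxn1b it was 0.60 with the other 40 genes, 0.69 with the glia and myelin list and 0.68 with the liver list. For stx1a it was 0.56 with the other genes and 0.82 with the liver list. With the liver list dlg4a was at 0.24 and syt2a at 0.43. The part of these tissues was not tested.

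For rab3aa the coefficient with the oocyte list was 0.53, as it was with the forebrain and midbrain list, and with the photoreceptor list 0.45. The oocyte list of 22 genes was high in T35D-2, T35D-3, T45D-2, T60D-2 and T60D-3, at mean log2 CPM of 8.46, 8.63, 8.18, 7.62 and 7.81, and at 5.62 or less in the other 16 libraries. In these 5 libraries rab3aa was at 17.6, 23.2, 13.0, 17.7 and 16.7 CPM, and its highest value elsewhere was 14.2 CPM in T35D-1. T35D-3 and T60D-2 were low in nearly all other synapse genes. The forebrain and midbrain list was at a mean log2 CPM of 0.52 in T35D-3 and -0.28 in T60D-2. It was at -1.40 in C35D-1 and -1.58 to -0.82 in C60D. T60D-2 was among the 7 lowest libraries for this list. Its sum, which a few high genes can dominate, was 285.4 CPM in T35D-3 and 167.1 CPM in T60D-2. That sum was 37.96 CPM in C35D-1 and 37.1 to 45.5 CPM in C60D. In C25D, with means of 2.13 to 2.33, the sum was 223.8 to 249.6 CPM. In the other libraries high in the oocyte list it was 262.4 CPM (T35D-2), 239.0 CPM (T45D-2) and 226.7 CPM (T60D-3). C45D was at 118.7 to 184.7 CPM, while T35D-1, low in the oocyte list, was at 236.0 CPM. Which genes carried the sum was not examined, so the sum is not given as a measure of brain content. The part of oocyte content in the level of rab3aa was not tested. In dlg4a, the libraries T60D-2 and T60D-3 were high but T35D-2, T35D-3 and T45D-2 were at 0.261, 0.272 and 0.319 CPM.

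**Figure D5:**
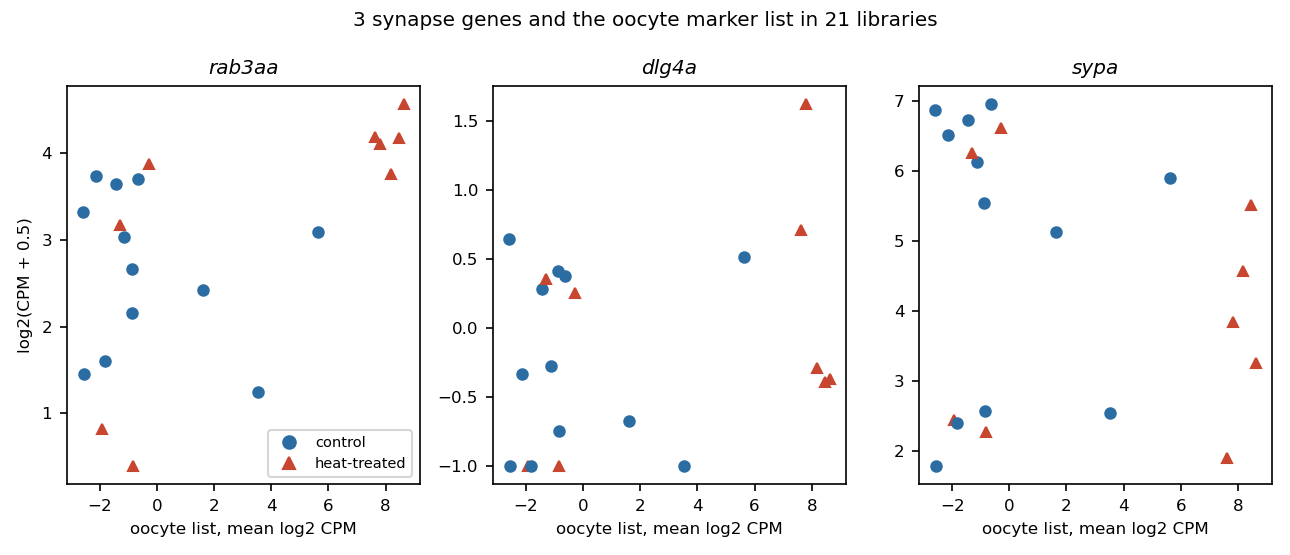
Level of rab3aa, dlg4a and sypa, as log2(CPM + 0.5), against the mean log2 CPM of the oocyte marker list in 21 libraries, controls as circles and heat-treated libraries as triangles. The 5 libraries to the right, with oocyte means of 7.62 to 8.63, include the 4 highest values of rab3aa, whereas sypa spans its whole range at low oocyte values.

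A wider list of 120 other synapse genes, matched in the table and written from general knowledge, held calcium channels, further receptors, scaffolds and release factors, and 3 of its genes are also in the hindbrain, spinal cord and peripheral list. At 45 dpf 98 of them were tested, 89 were below 0, the median was -1.93, 78 did not overlap and lay lower in T45D (19.3% of all genes did), and edgeR called 0 and DESeq2 29 (2.46% of all genes were called lower by DESeq2). At 60 dpf the median of 59 tested was 1.41, with 50 above 0, 0 called by edgeR and 3 called higher by DESeq2, below the 9.37% of all genes. Between C45D and C60D, 73 of 96 were called lower by edgeR against 18.2% of all genes, with a median of -2.94. In C60D, 41 to 57 of the 120 genes were at or under 3 counts, against 7 to 11 in C45D. Those of them that passed the count filter only through C45D could only be lower, and the median depends in part on the prior count. The 7 libraries lowest in the 41 genes were also the 7 lowest in this list.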

How the data were processed

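Whole-body RNA of 21 zebrafish libraries was sequenced on the BGISEQ-500 platform. Reads passing the authors' SOAPnuke filter were mapped to the genome (GRCz11) with HISAT2 2.0.4 and to coding genes with Bowtie2 2.2.5, and the authors deposited for each gene the RSEM 1.2.12 expected count, which is not normalized, and an FPKM value scaled by gene length and library size. The study compared groups with DESeq2 1.4.5.

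Expected counts were rounded to whole numbers. Heat-treated and control libraries of an age were compared with edgeR 4.0.16 in R 4.3.3 (quasi-likelihood test, TMM, filterByExpr, Benjamini-Hochberg adjustment over all genes tested, threshold 0.05). DESeq2 1.42.0 was an alternative. Differences between ages in the heat effect were tested in a joint fit of 18 libraries. Deposited FPKM served only to set levels of different genes side by side. List means are means of log2 CPM with a prior count of 0.5, and a gene at or under 3 counts in all libraries of a group was given a bound, not a fold change. The scheme was also run on simulated counts, and the outcome is not reported here. Genes were matched through the RefSeq gene list, which is of another assembly, so no coordinates or sequences are given.

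Groups came from the library names. The members and the marker lists, written from general knowledge, were chosen with earlier results of these data known. Named with the value of every library are the 2 genes of each role group with the highest mean FPKM, and besides them the 3 lowest and 3 highest log2 fold changes of each heat comparison and the genes called at an adjusted p of 0.05 or less. The study gives no pairing of libraries. Deviations of same-numbered libraries from their group means were correlated in C35D against C25D (0.209, 0.220 and 0.152) and in C60D against C45D (0.426, 0.264 and 0.265). With 3 libraries per group, these values do not establish a pairing. In T45D against T35D they were 0.563, 0.569 and -0.125. In no other comparison were the correlations of all 3 pairs above 0.1.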

Additional observations from a re-analysis of the deposited data

Results flagged for a closer look

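The heat effect on syt1a, the calcium sensor of fast release, differed in sign between ages without overlap of the groups. All 3 T45D libraries were below all 3 C45D libraries, and all 3 T60D libraries were above all 3 C60D libraries. At 45 dpf, 35 of 38 synapse genes lay lower without overlap, against 19.3% of all genes. At 60 dpf, 3 of 30 lay higher without overlap, which is not above the 11.8% of all genes. The margin at 60 dpf was small, with T60D-2 at 8.14 CPM and C60D-3 at 7.11 CPM, while T60D-1 was at 88.5 CPM. The gene was flagged among the 41 by this lack of overlap, so the test below uses the values that picked it. In the joint edgeR fit the effect at 60 dpf minus that at 45 dpf was 5.13 log2 units (SE 1.47, adjusted p = 0.117), which did not pass the threshold, while the adjusted p of DESeq2 was 0.00949. The difference was not particular to syt1a, since 36 of 40 synapse genes were higher at an unadjusted edgeR p of 0.05 or less, against 11.6% of all genes. The photoreceptor list was low in C60D and in T60D-2. Its mean (log2 CPM) stood at -3.34, -2.02 and -2.61 in the C60D libraries, where 34 to 45 of the 53 genes were at or under 3 counts, and at 5.19, -2.64 and 3.00 in the T60D libraries. The part of the photoreceptor genes in this result was not tested.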

How the results depend on the processing

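Of 384 recomputed values, 347 were labelled as the same. That label means a count of like size, 0 in both included, or a median or mean within the pooled SD between libraries. A median also had to keep its sign, and the side of a threshold was not checked. Of the rest, 20 moved further, 15 counts rose from 0, 1 count fell to 0 and 1 median reversed. The median of T60D against T45D was 1.43 with all libraries and -0.48 without T60D-1. Over all 41 synapse genes, with no filter on low counts, DESeq2 called 14 at 45 dpf, beside 2.51% of all genes. At 60 dpf it called 17, beside 12.1%, and 27 were higher at an unadjusted p of 0.05 or less, beside 18%. In C35D against C25D it called 16, beside 10.2% of all genes. In the difference between 60 and 45 dpf it called 27, beside 6.17%. The main edgeR fits called 0 synapse genes each time. A minimum of 10 counts in each library left 20 genes tested at 45 dpf. Of these, 19 were lower at an unadjusted p of 0.05 or less, against 7.7% of all genes. With T45D-2 as the only heat-treated library the median at 45 dpf was -1.29. Without C35D-1 and T35D-3, 9 genes were higher at that p at 35 dpf, against 3.42% of all genes. Both settings were chosen after seeing the data. At 60 dpf, 23 of 41 genes were higher at that p with no filter on counts, against 18.5% of all genes. In 1 fit of all 21 libraries, 30 of 40 were higher at that p, against 24.3% of all genes. That fit called 3 of the 40, against 14.1% of all genes. Of the synapse genes that these settings added at 60 dpf, all but slc6a1b were at 3 counts or fewer in every C60D library. Those could hardly be lower in T60D, so the larger numbers of higher genes are no independent check. The same holds for the DESeq2 numbers over all 41 genes at 60 dpf. Scaling by library size only moved the median of all genes at 45 dpf from 0.12 to -0.43 and that of the synapse genes from -2.49 to -2.63, that of C60D against C45D to -4.26 and the mean log2 CPM in C25D to 4.82.

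With a replicate block, edgeR called 1 gene in C35D against C25D, beside 1.34% of all genes. It called 32 in C60D against C45D, beside 18.8% of all genes. In the heat comparisons the block gave 33 lower genes at 45 dpf (median -3.01), 1 higher at 35 dpf (median 0.69) and 2 higher at 60 dpf (median 1.55), and 0 called in each.

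Leaving out 1 library at a time, edgeR called 0 to 36 synapse genes at 45 dpf, beside 0 to 7.98% of all genes. At 60 dpf it called 0 to 4, beside 0 to 32.1% of all genes. In C35D against C25D it called 0 to 16, beside 0 to 15.6%. In C60D against C45D it called 31 to 38, beside 13.1 to 36.2%. In the difference between 60 and 45 dpf it called 0 to 15, beside 0 to 3.48%. At an unadjusted p of 0.05 or less, 18 to 37 were lower at 45 dpf (medians -3.87 to -1.97), beside 5.72 to 16.6% of all genes. At 35 dpf 0 to 2 were lower and 0 to 4 higher (medians 0.15 to 1.80). Over all genes, 4.45 to 21.4% were lower and 2.69 to 24.8% higher. At 60 dpf 0 to 1 were lower and 2 to 28 higher (medians 0.63 to 3.41). There, 2.87 to 22.5% of all genes were lower and 8.12 to 25.3% higher. Medians ran from -0.48 to 2.86 in T60D against T45D, from 3.57 to 6.81 in the difference between 60 and 45 dpf, and from 0.13 to 2.68 in that between 60 and 35 dpf. The cause was not tested. Depth limits the genes at or under 3 counts, for which only bounds are given.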
